A study of Mus musculus with 12 samples.

Results

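The 9 genes described here are the metallothionein genes Mt1 and Mt2, the gene of their metal-sensing regulator, Mtf1, the export transporter genes Slc30a1, Slc30a2 and Slc30a10, and the import transporter genes Slc39a4, Slc39a5 and Slc39a14. They were taken by name from the 47643 genes of the deposited table, and 9 of 9 passed the filter on low counts that left 17602 genes for testing. The group was selected on the levels of Mt1, which differed by genotype, and of Mt2, which differed by diet, in these same libraries. The values of Mt1 and Mt2 are therefore a description and carry no test, while the other 7 genes are given with p-values adjusted over all genes tested. Bulk RNA-seq was made from mouse intestine in 12 libraries, 3 for each of 4 groups, which were PparaΔIE on a high-fat diet, Pparafl/fl on a high-fat diet, PparaΔIE on chow and Pparafl/fl on chow. All mice were male C57BL/6, were 7 to 8 weeks old and received their diet for 10 days, and the high-fat diet (HFD) is given as 60%. Pparafl/fl mice carry floxed alleles of Ppara, which encodes a fatty acid-activated nuclear receptor, and PparaΔIE is the usual notation for its loss in the intestinal epithelium. The labels name neither the recombinase line nor the intestinal segment, and whether each library is a different mouse is not stated, so a p-value speaks of the spread among the libraries.

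Metallothioneins are small cysteine-rich proteins that bind zinc and copper and buffer the free zinc of a cell. Excess zinc is sensed by MTF1, a zinc finger transcription factor that binds metal response elements in the promoters of Mt1, Mt2 and Slc30a1. The SLC30 family moves zinc out of the cytosol and the SLC39 family moves it in, and in enterocytes dietary zinc enters through the SLC39A4 protein at the apical membrane. Metallothionein genes are also known to respond to glucocorticoids, inflammation and oxidative stress.

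Expected counts summed to 33620991 in the shallowest library and 53959367 in the deepest. Levels are given in CPM, which are counts scaled to a common library size. Ppara, the targeted gene (chromosome 15, 85734983 to 85802819, mm10), had 11.4, 11.1 and 17.3 CPM in the PparaΔIE HFD libraries, against 39.3, 36.6 and 33.7 CPM in Pparafl/fl HFD. On chow it had 8.42, 15.6 and 13.0 CPM in PparaΔIE, against 19.2, 18.1 and 22.0 CPM in Pparafl/fl. All PparaΔIE libraries lay below all Pparafl/fl libraries of the same diet, and a count per gene also takes in exons that a deletion spares and cells other than epithelium. Epithelial markers, and distal ileal markers other than Fgf15, were high in every group. For example, the bile acid transporter gene Slc10a2 averaged 1181 CPM in PparaΔIE HFD and 1146 CPM in Pparafl/fl HFD. On chow it averaged 1203 CPM in PparaΔIE and 1216 CPM in Pparafl/fl. Fgf15 averaged 14.9 CPM in Pparafl/fl chow. The colon markers Aqp8 and Hoxb13 had 0 to 3 counts in every library. The libraries of Pparafl/fl chow were more alike than those of other groups, with a biological coefficient of variation of 0.140 in PparaΔIE HFD, 0.146 in Pparafl/fl HFD, 0.151 in PparaΔIE chow and 0.0583 in Pparafl/fl chow. PparaΔIE chow library 3 lay between the other libraries of its group at 145 of the 146 genes that differed at least 2-fold between those, and Pparafl/fl chow library 1 did so at 15 of 17. In the other 10 libraries this share ran from 3.03% to 81.1%. Results are also given without both of these chow libraries.

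Mt1 lies on chromosome 8 at 94179082 to 94180327 and Mt2 at 94172664 to 94173568 (mm10), with 5513 bases between the genes. Their coding sequences, from the GENCODE vM21 transcripts Mt1-201 and Mt2-201, are shown because the results turn on telling these neighbouring genes apart. Cysteine codons, whose products bind the metal, are in capitals.
Mt1 coding sequence: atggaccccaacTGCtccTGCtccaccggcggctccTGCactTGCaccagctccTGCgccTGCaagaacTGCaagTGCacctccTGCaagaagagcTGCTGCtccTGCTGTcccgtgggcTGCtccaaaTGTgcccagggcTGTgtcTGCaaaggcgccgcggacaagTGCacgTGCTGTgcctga
Mt2 coding sequence: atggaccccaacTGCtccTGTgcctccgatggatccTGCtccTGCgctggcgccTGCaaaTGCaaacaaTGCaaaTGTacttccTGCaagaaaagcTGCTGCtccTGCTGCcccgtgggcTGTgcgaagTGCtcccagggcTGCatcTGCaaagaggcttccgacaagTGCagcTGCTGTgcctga
Each holds 186 bases with 20 cysteine codons, and all 20 stand at the same places in both. Of the 186 positions 148 are identical, which is 79.6%. The longest run shared by the whole transcripts was 20 bases, and none of the 520 stretches of 30 bases in Mt1 occurred in Mt2 or in another gene. Of the 482 such stretches of Mt2, 4 occurred in Pip5k1a.

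The promoters of Mt1, Mt2 and Slc30a1 are shown because MTF1 is known to act on these genes. The windows are from RefSeq (GRCm38.p6), run 5′ to 3′ on the strand of the gene from 250 bases before to 50 bases after its RefSeq start, and have the metal response element cores TGCACNC and TGCGCNC, searched on both strands, in capitals.
Mt1 promoter, chr8:94178839-94179138, plus strand: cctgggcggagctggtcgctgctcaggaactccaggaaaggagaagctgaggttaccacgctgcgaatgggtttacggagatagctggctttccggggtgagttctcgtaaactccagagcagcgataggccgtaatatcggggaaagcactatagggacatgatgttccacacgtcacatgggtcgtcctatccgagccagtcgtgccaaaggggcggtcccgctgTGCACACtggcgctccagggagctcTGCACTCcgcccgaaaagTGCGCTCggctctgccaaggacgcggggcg
Mt2 promoter, chr8:94172368-94172667, plus strand: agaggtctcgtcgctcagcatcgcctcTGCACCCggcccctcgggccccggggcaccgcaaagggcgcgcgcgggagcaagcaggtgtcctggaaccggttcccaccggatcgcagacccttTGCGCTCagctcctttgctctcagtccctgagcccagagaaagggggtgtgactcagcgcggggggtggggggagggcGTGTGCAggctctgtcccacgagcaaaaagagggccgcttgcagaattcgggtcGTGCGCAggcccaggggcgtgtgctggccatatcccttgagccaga
Slc30a1 promoter, chr1:191906531-191906830, plus strand: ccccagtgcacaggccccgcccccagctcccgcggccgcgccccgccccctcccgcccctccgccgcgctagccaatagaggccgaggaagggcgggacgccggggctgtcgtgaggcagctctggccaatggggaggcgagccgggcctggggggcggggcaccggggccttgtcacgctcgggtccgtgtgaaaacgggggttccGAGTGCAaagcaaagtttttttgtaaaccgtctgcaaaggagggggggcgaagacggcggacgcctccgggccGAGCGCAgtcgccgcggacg
The Mt1 window held 3 cores, beginning 23 bases before and 2 and 20 bases after the RefSeq start. The Mt2 window held 4, of which 3 began 223, 128 and 50 bases before the start and the last began 4 bases after it. The Slc30a1 window held 2 cores, and those of the exporter genes Slc30a2 and Slc30a10 held 2 and 3, with an overlapping pair in Slc30a10. Of 2 windows of Slc39a5, 1 held a single core, and the Mtf1 window held none. In all, 7 of the 9 genes had a window in this table and 6 of these held a core. Among all 32851 windows, 25.7% held at least 1 core, 7.11% at least 2, 1.97% at least 3 and 0.52% at least 4. A core is a match of letters and not a shown binding site. Sequence beyond the windows was not searched, and the counts do not show where transcription begins, so further cores may lie outside them.

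Mt1 was several-fold higher in PparaΔIE intestine than in Pparafl/fl intestine on either diet. On HFD it had 175, 168 and 195 CPM in PparaΔIE, against 20.0, 13.2 and 19.6 CPM in Pparafl/fl. On chow it had 249, 240 and 242 CPM in PparaΔIE, against 48.3, 41.6 and 50.5 CPM in Pparafl/fl. The genotypes did not overlap, and the lowest PparaΔIE library of either diet stood above the highest Pparafl/fl library of either diet. The log2 fold change of PparaΔIE over Pparafl/fl was 3.35 on HFD (SE 0.14), a 10.2-fold difference, and 2.38 on chow (SE 0.13), a 5.20-fold difference. Without both chow libraries named above these values were 3.34 and 2.41. The proportional difference was wider on HFD, by 0.97 on the log2 scale (SE 0.18), whereas the difference in level was 161 ± 8.52 CPM on HFD and 197 ± 3.74 CPM on chow (SE). In bulk tissue, more RNA per cell and more cells of an expressing type cannot be told apart. Some recombinase transgenes carry metallothionein gene sequence, and the labels name no recombinase line. Counts per gene do not show where within Mt1 the reads lie, so RNA of the mouse's own Mt1 gene and RNA of such a transgene cannot be told apart here.

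Mt1 was also lower on HFD than on chow in each genotype. Its mean fell short of the chow level by 64.5 ± 8.63 CPM in PparaΔIE and by 29.2 ± 3.47 CPM in Pparafl/fl (SE, n = 3 libraries a group). The log2 fold change of HFD over chow was -0.44 in PparaΔIE (SE 0.12) and -1.41 in Pparafl/fl (SE 0.13), which is a 1.36-fold and a 2.66-fold lower level. The diets did not overlap within either genotype. The comparisons between diets and between genotypes share their libraries, so these values are not independent of those above.

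Mt2 followed diet and showed little separation by genotype. It had 3.06, 2.0 and 3.33 CPM in PparaΔIE HFD, against 15.0, 23.2 and 21.0 CPM in PparaΔIE chow. In Pparafl/fl it had 3.16, 1.44 and 1.88 CPM on HFD, against 14.1, 12.3 and 15.4 CPM on chow. All 6 HFD libraries lay below all 6 chow libraries. The log2 fold change of HFD over chow was -2.82 in PparaΔIE (SE 0.27), 7.07-fold lower, and -2.69 in Pparafl/fl (SE 0.27), 6.46-fold lower. Without both chow libraries named above these values were -2.79 and -2.69. PparaΔIE libraries overlapped Pparafl/fl libraries on each diet, with log2 fold changes of 0.37 on HFD (SE 0.29) and 0.50 on chow (SE 0.24). On HFD, Mt2 rested on 290 counts over the 3 PparaΔIE libraries and 254 over the 3 Pparafl/fl libraries, and its relative spread was 25.2% in PparaΔIE HFD and 41.3% in Pparafl/fl HFD.

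The ratio of Mt1 to Mt2 within a library sets these patterns side by side and does not depend on library size. It was 57.2, 83.9 and 58.5 in PparaΔIE HFD and 6.34, 9.16 and 10.4 in Pparafl/fl HFD. On chow it was 16.5, 10.3 and 11.5 in PparaΔIE and 3.42, 3.38 and 3.27 in Pparafl/fl. The ratio was thus higher in PparaΔIE on each diet and higher on HFD in each genotype, with no overlap between PparaΔIE HFD and any other group. In the Pparafl/fl chow libraries it stayed within 3.27 to 3.42, a mean of 3.36 ± 0.080 (SD, n = 3).

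**Figure D1:**
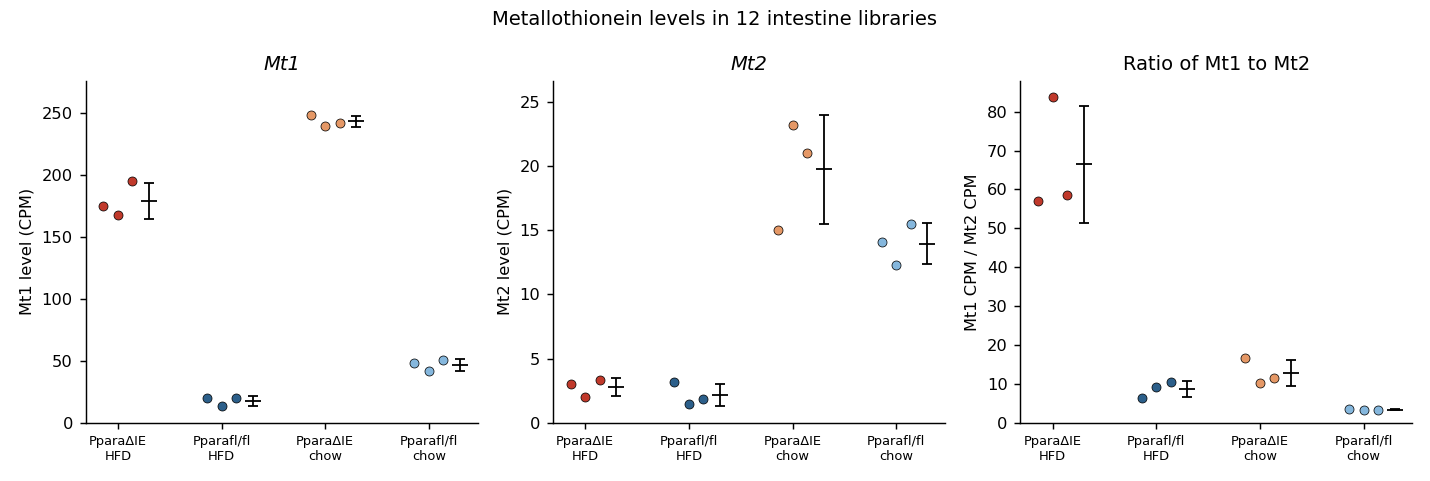
Level of Mt1 and of Mt2 in CPM and the ratio of Mt1 to Mt2 in each of the 12 libraries, by group; points are libraries, and the bars beside them give the mean and SD of 3 libraries. Mt1 separates the genotypes, at 168 to 195 CPM in PparaΔIE HFD against 13.2 to 20.0 CPM in Pparafl/fl HFD, while Mt2 separates the diets.

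Markers of gut region moved with diet, and not of the proximal gut alone. The summed level of 6 proximal small intestine markers was 1180 to 1557 CPM in PparaΔIE HFD, 1096 to 3001 CPM in Pparafl/fl HFD, 464 to 538 CPM in PparaΔIE chow and 265 to 387 CPM in Pparafl/fl chow. Apoa4 alone made up most of this sum. Its mean was 1119 of 1379 CPM in PparaΔIE HFD and 1917 of 2269 CPM in Pparafl/fl HFD. On chow it was 293 of 508 CPM in PparaΔIE and 189 of 326 CPM in Pparafl/fl. Of the 6 markers, 1 rose on HFD in PparaΔIE and 3 in Pparafl/fl, against 3.44% and 6.80% of all genes. None was at 0 in a whole group. Without overlap, 2 lay higher on HFD and 0 lower in PparaΔIE, against 12.7% and 13.1% of all genes. In Pparafl/fl 3 lay higher and 1 lower, against 19.3% and 18.6%. Lactase, Lct, had 50.2, 128 and 144 CPM in PparaΔIE HFD, 256, 160 and 76.2 CPM in Pparafl/fl HFD, 0.453, 102 and 57.6 CPM in PparaΔIE chow and 2.24, 2.75 and 2.01 CPM in Pparafl/fl chow. Of 5 distal ileum markers, 1 rose on HFD in Pparafl/fl, against 6.80% of all genes, and 0 were called in PparaΔIE. It was Fgf15, an intestinal hormone gene induced by bile acids, with 79.5 to 159 CPM in PparaΔIE HFD, 84.5 to 116 CPM in Pparafl/fl HFD, 15.1 to 109 CPM in PparaΔIE chow and 12.1 to 16.7 CPM in Pparafl/fl chow. Its log2 diet difference was 2.79 in Pparafl/fl (adjusted p = 0.0245) and 0.82 in PparaΔIE (adjusted p = 0.431). The colon marker Car1 fell on HFD in both genotypes, at 0 to 2 counts in the HFD libraries against 9 to 46 counts in the chow libraries. The proximal marker sums did not overlap between diets in either genotype, so diet and region along the gut cannot be told apart from these libraries. With a score of the proximal markers as a covariate, chosen after seeing the data, the log2 genotype difference of Mt1 was 3.30 on HFD and 2.45 on chow. The log2 diet difference of Mt2 in that fit was -3.07 in PparaΔIE and -3.33 in Pparafl/fl. The score itself lay higher on HFD than on chow in each genotype without overlap, so that fit cannot separate region from diet. Of 8 smooth muscle markers, 2 were called higher in PparaΔIE on HFD, where 0.290% of all genes were called in either direction, and 8 of 8 lay higher without overlap, against 9.27% of all genes. Their sum was 83.6 to 109.5 CPM in PparaΔIE HFD and 27.9 to 64.0 CPM in Pparafl/fl HFD. On chow it was 39.4 to 57.3 CPM in PparaΔIE and 57.1 to 58.2 CPM in Pparafl/fl. On HFD in PparaΔIE 3 of the 8 rose, against 3.44% of all genes. The part of the smooth muscle, distal and colon markers in the differences of Mt1 and Mt2 was not tested.

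The tested genes around Mt1 had smaller log2 differences between genotypes than Mt1 had. Besides Mt2, 10 tested genes start within 300 kb of the Mt1 start, a set chosen after the values were seen. By edgeR, 0 of these 10 were called between genotypes on HFD, against 0.290% of all genes, and 0 on chow, against 0.125%. At such shares 0 calls among 10 genes is not particular to them. At an unadjusted p under 0.05 there was 1 on each diet, and DESeq2 called 0. Nup93, a nuclear pore gene that starts 35.5 kb beyond Mt1, had log2 fold changes of -0.06 on HFD (adjusted p = 0.896) and -0.32 on chow (adjusted p = 0.378). Herpud1, a gene of endoplasmic reticulum stress at 207 kb, had -0.15 (adjusted p = 0.635) and 0.03 (adjusted p = 0.942).

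**Figure D2:**
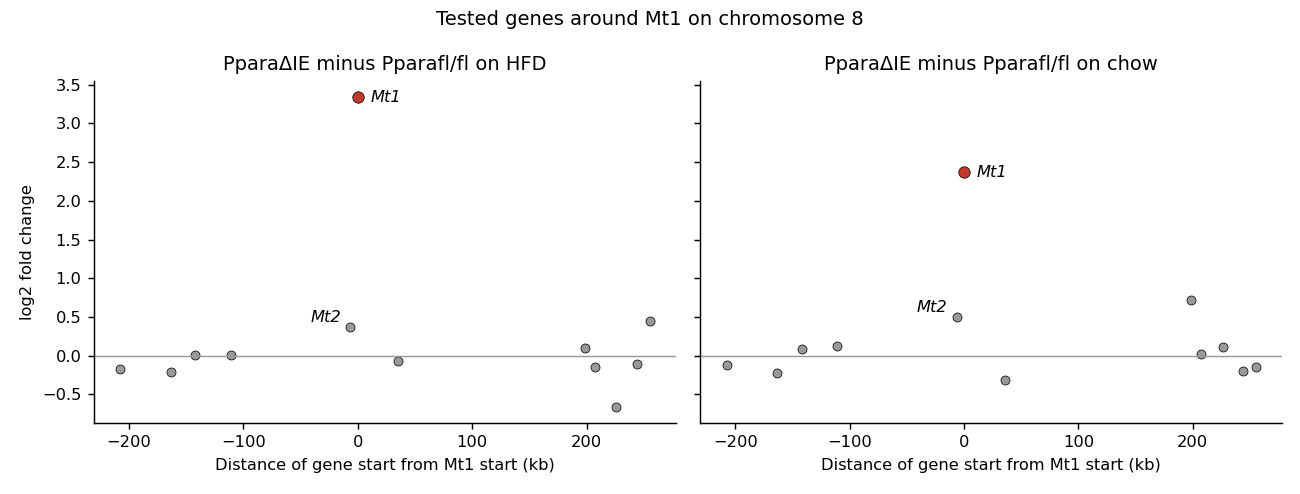
Log2 fold change of PparaΔIE over Pparafl/fl on HFD (left) and chow (right) for the tested genes that start within 300 kb of Mt1, against the distance of their start from the Mt1 start in kb. Mt1, in red at 0 kb, stands at 3.35 and 2.38, and Mt2 at 0.37 and 0.50.

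Per kilobase of the principal transcript, Mt1 was the highest of the 9 genes in PparaΔIE, at 326 ± 26.0 CPM per kb on HFD and 444 ± 8.25 CPM per kb on chow (SD, n = 3). In Pparafl/fl it came after Slc39a4 and Slc39a5, at 32.1 ± 6.98 CPM per kb on HFD and 85.2 ± 8.43 CPM per kb on chow. The chow value lay within the spread of Slc39a4 at 87.7 ± 4.23 CPM per kb and of Slc39a5 at 93.6 ± 4.38 CPM per kb in the same libraries. Mt2 was the last of the 9 on HFD, at 5.47 ± 1.38 CPM per kb in PparaΔIE and 4.23 ± 1.75 CPM per kb in Pparafl/fl. On chow Mt2 was the fourth, at 38.6 ± 8.29 CPM per kb in PparaΔIE and 27.3 ± 3.08 CPM per kb in Pparafl/fl. Slc39a14, Slc30a1 and Slc30a2 followed one another between 14.4 and 23.0 CPM per kb in every group, and Mtf1 and Slc30a10 between 5.05 and 9.07 CPM per kb. In PparaΔIE HFD, Slc30a1 at 16.9 ± 1.32 and Slc30a2 at 16.3 ± 1.79 CPM per kb did not differ beyond their spread. With the union of exons as length, Mt1 held rank 5 in Pparafl/fl HFD.

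The genes most like Mt1 across the 12 libraries, by Pearson correlation of log2(CPM + 0.5), were S100g (0.94), Zfp513 (0.92), Phykpl (0.91), Ankrd16 (0.91) and Klf7 (0.90). S100g, which encodes a vitamin D-dependent calcium-binding protein of enterocytes, averaged 9.01 CPM in PparaΔIE HFD, 4.48 CPM in Pparafl/fl HFD, 9.21 CPM in PparaΔIE chow and 7.24 CPM in Pparafl/fl chow. Its range of levels was far narrower than that of Mt1. For Mt2 the likest genes were Klk1 (0.97), Zfas1 (0.96), H1f0 (0.95), Dnal4 (0.95) and Lipg (0.94). Klk1, a kallikrein protease gene, averaged 49.0 CPM in PparaΔIE HFD, 48.4 CPM in Pparafl/fl HFD, 87.6 CPM in PparaΔIE chow and 75.9 CPM in Pparafl/fl chow. These correlations are descriptions over libraries that share depth, diet and genotype.

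Mtf1, on chromosome 4 at 124802104 to 124849800, encodes the activator of both metallothionein genes and was not called by edgeR in any comparison. It had 58.3, 64.3 and 69.2 CPM in PparaΔIE HFD, against 57.4, 63.2 and 67.2 CPM in Pparafl/fl HFD. On chow it had 54.5, 51.7 and 54.3 CPM in PparaΔIE, against 54.5, 52.9 and 59.1 CPM in Pparafl/fl. The genotypes overlapped on each diet, with log2 fold changes of 0.03 on HFD (adjusted p = 0.911) and -0.05 on chow (adjusted p = 0.818). In PparaΔIE the HFD libraries lay above the chow libraries, by 0.26 on the log2 scale (SE 0.08, adjusted p = 0.0629). That adjusted p was 0.0461 with a filter of 50 counts in 3 libraries, 0.0467 without PparaΔIE HFD library 1 and 0.0455 without Pparafl/fl HFD library 1, and it was 0.248 without both chow libraries named above.

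Between genotypes, edgeR's quasi-likelihood test called 0 of the 7 genes beyond the metallothioneins on HFD, where it called 0.290% of all genes, and 0 of 7 on chow, where it called 0.125%. At an unadjusted p under 0.05 there were 3 of 7 on each diet, among 2289 genes on HFD and 2293 on chow. DESeq2 called 2 on HFD and 1 on chow. Between diets, 1 of 7 was called in PparaΔIE, against 8.20% of all genes, and 2 of 7 in Pparafl/fl, against 13.4%. The call in PparaΔIE was of a higher level on HFD, against 3.44% of all genes called higher and 4.76% called lower there. In Pparafl/fl 1 was higher and 1 lower, against 6.80% and 6.57% of all genes. The median log2 fold change of the 7 was 0.03 for genotype on HFD, 0.00046 for genotype on chow, 0.07 for diet in PparaΔIE and 0.16 for diet in Pparafl/fl, while the median of all genes was at most 0.01 in size. None of the 7 had a called genotype by diet interaction, with 0 at an unadjusted p under 0.05 and 0 by DESeq2, and edgeR called 0.00568% of all genes there.

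Of the 3 exporter genes edgeR called Slc30a1, in 1 comparison, and DESeq2 also called Slc30a10. Slc30a1 (chromosome 1, 191906767 to 191913247) encodes the exporter of the plasma membrane, and it is a known MTF1 target. It had 96.0, 82.3 and 88.0 CPM in PparaΔIE HFD and 69.5, 92.5 and 90.5 CPM in Pparafl/fl HFD. On chow it had 114, 100.1 and 106 CPM in PparaΔIE and 108, 111 and 102 CPM in Pparafl/fl. The HFD libraries lay below the chow libraries in each genotype, while the genotypes overlapped on each diet. Slc30a1 fell on HFD in Pparafl/fl, at a log2 fold change of -0.35 with an SE of 0.10 and an adjusted p of 0.0358, and had -0.27 in PparaΔIE (SE 0.10, adjusted p = 0.112). In Pparafl/fl the adjusted p was 0.105, 0.11 and 0.0765 without chow library 1, 2 or 3, 0.0716 and 0.0505 without HFD library 1 or 3, 0.0541 without PparaΔIE chow library 3, and 0.152 without both chow libraries named above. In PparaΔIE it was 0.0375 without Pparafl/fl HFD library 1. With the proximal score as a covariate the Pparafl/fl value was 0.05 on the log2 scale (SE 0.20, adjusted p = 0.99), so no direction can be read from it. That fit called 0 of all genes between diets in Pparafl/fl.

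Slc30a10, a manganese exporter (chromosome 1, 185454848 to 185468762), had 55.3, 47.1 and 56.3 CPM in PparaΔIE HFD, against 30.5, 44.8 and 31.7 CPM in Pparafl/fl HFD. On chow it had 32.3, 43.1 and 36.9 CPM in PparaΔIE, against 29.6, 32.0 and 26.7 CPM in Pparafl/fl. PparaΔIE lay above Pparafl/fl on each diet without overlap, as did 9.27% of all genes on HFD and 10.0% on chow. On HFD the log2 fold change reached 0.57 (SE 0.15), where the adjusted p was 0.142 by edgeR and 0.0176 by DESeq2. On chow it was 0.35 (SE 0.15, adjusted p = 0.342). The diet difference in PparaΔIE was 0.50 (SE 0.15), where the adjusted p was 0.0527 by edgeR and 0.0145 by DESeq2. By edgeR it was 0.044 with a filter of 50 counts in 3 libraries, 0.0252 without PparaΔIE chow library 2, 0.0377 without Pparafl/fl HFD library 1, 0.0173 without Pparafl/fl HFD library 2 and 0.222 without both chow libraries.

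Slc30a2 (chromosome 4, 134343181 to 134354484) loads zinc into vesicles and is known for the zinc-rich granules of Paneth cells. It had 49.8, 46.6 and 57.6 CPM in PparaΔIE HFD, 52.2, 45.9 and 53.7 CPM in Pparafl/fl HFD, 48.5, 59.2 and 51.0 CPM in PparaΔIE chow and 46.5, 45.4 and 44.3 CPM in Pparafl/fl chow. The groups overlapped except between genotypes on chow, where the log2 difference was 0.22 (SE 0.09, adjusted p = 0.34). The summed level of 7 Paneth cell markers was 2269 to 2332 CPM in PparaΔIE HFD, 2833 to 4170 CPM in Pparafl/fl HFD, 2246 to 2371 CPM in PparaΔIE chow and 2607 to 3132 CPM in Pparafl/fl chow.

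Slc39a4 (chromosome 15, 76612383 to 76617384), the apical importer of dietary zinc, was higher on HFD in each genotype. It had 270, 268 and 296 CPM in PparaΔIE HFD, against 228, 216 and 230.1 CPM in PparaΔIE chow. In Pparafl/fl it had 303, 344 and 324 CPM on HFD, against 249, 228 and 246 CPM on chow. The diets did not overlap in either genotype, as for 12.7% of all genes in PparaΔIE and 19.3% in Pparafl/fl in that direction. It rose on HFD with log2 fold changes of 0.31 in PparaΔIE (SE 0.08, adjusted p = 0.0261) and 0.42 in Pparafl/fl (SE 0.08, adjusted p = 0.00381). In Pparafl/fl the call held without any 1 library and, at an adjusted p of 0.0462, without both chow libraries. With the proximal score as a covariate the value was 0.48 (SE 0.17, adjusted p = 0.634). That fit called 0 of all genes between diets in Pparafl/fl, so the lost call is not particular to Slc39a4. In PparaΔIE the adjusted p was 0.0739 and 0.0986 without chow library 1 or 3, 0.052 and 0.104 without HFD library 2 or 3, 0.0636 without Pparafl/fl chow library 1, 0.157 without both chow libraries, 0.0976 with only the groups compared and 0.169 with the proximal score (0.33 on the log2 scale). Of 6 mature enterocyte markers, 1 rose on HFD in PparaΔIE (Fabp2 0.78) and 3 rose in Pparafl/fl (Alpi 0.77, Apoa1 0.70, Fabp2 1.43), against 3.44% and 6.80% of all genes. Their median log2 fold change was 0.24 and 0.49. Against 12.7% and 19.3% of all genes, 3 and 5 of these 6 markers lay higher on HFD without overlap. Their summed level was 18389 to 24393 CPM in PparaΔIE HFD, 22734 to 25012 CPM in Pparafl/fl HFD, 17251 to 17304 CPM in PparaΔIE chow and 17200 to 17325 CPM in Pparafl/fl chow, with none at 0. Their part in the difference of Slc39a4 was not tested. Between genotypes Slc39a4 had a log2 fold change of -0.22 on HFD, where the groups did not overlap (SE 0.08, adjusted p = 0.252), and -0.10 on chow (SE 0.08, adjusted p = 0.587).

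Among the genes whose levels most resembled those of Slc39a4 over the 12 libraries were Ppp2r5c (0.97), Lpcat3 (0.97), Scp2 (0.96) and Agpat2 (0.96). Lpcat3, an enzyme that remodels phospholipids, averaged 175 CPM in PparaΔIE HFD, 219 CPM in Pparafl/fl HFD, 135 CPM in PparaΔIE chow and 151 CPM in Pparafl/fl chow.

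Slc39a5 (chromosome 10, 128395931 to 128401229), a zinc transporter of the basolateral side of the enterocyte, had groups that separated along both factors, as those of Mt1 did. It had 131, 137 and 146 CPM in PparaΔIE HFD, against 165, 168 and 160 CPM in Pparafl/fl HFD. On chow it had 156, 157 and 166 CPM in PparaΔIE, against 195, 179 and 194 CPM in Pparafl/fl. PparaΔIE lay below Pparafl/fl on each diet, and HFD lay below chow in each genotype, without overlap. The log2 fold change of PparaΔIE over Pparafl/fl was -0.25 on each diet (SE 0.07). The adjusted p by edgeR was 0.161 on HFD and 0.196 on chow, and by DESeq2 0.0169 and 0.0298. The diet difference was -0.21 in each genotype (SE 0.07), with an adjusted p of 0.0775 in PparaΔIE and 0.0644 in Pparafl/fl by edgeR, and of 0.0177 and 0.0183 by DESeq2. In Pparafl/fl the adjusted p by edgeR was 0.0449 with only the groups compared, and 0.0457 and 0.0411 without PparaΔIE chow library 1 or 2. The share of all genes lower without overlap was 8.70% between genotypes on HFD and 12.1% on chow, and 13.1% between diets in PparaΔIE and 18.6% in Pparafl/fl.

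Slc39a14 (chromosome 14, 70303469 to 70351425), an importer of zinc and manganese, had 102 to 121 CPM in PparaΔIE HFD, 101 to 116 CPM in Pparafl/fl HFD, 103 to 110 CPM in PparaΔIE chow and 99.2 to 108 CPM in Pparafl/fl chow. The groups overlapped in every comparison, and its log2 fold changes were 0.08 and 0.04 between genotypes on HFD and chow and 0.07 and 0.03 between diets in PparaΔIE and Pparafl/fl. The adjusted p ran from 0.622 to 0.875 in these 4 comparisons.

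**Figure D3:**
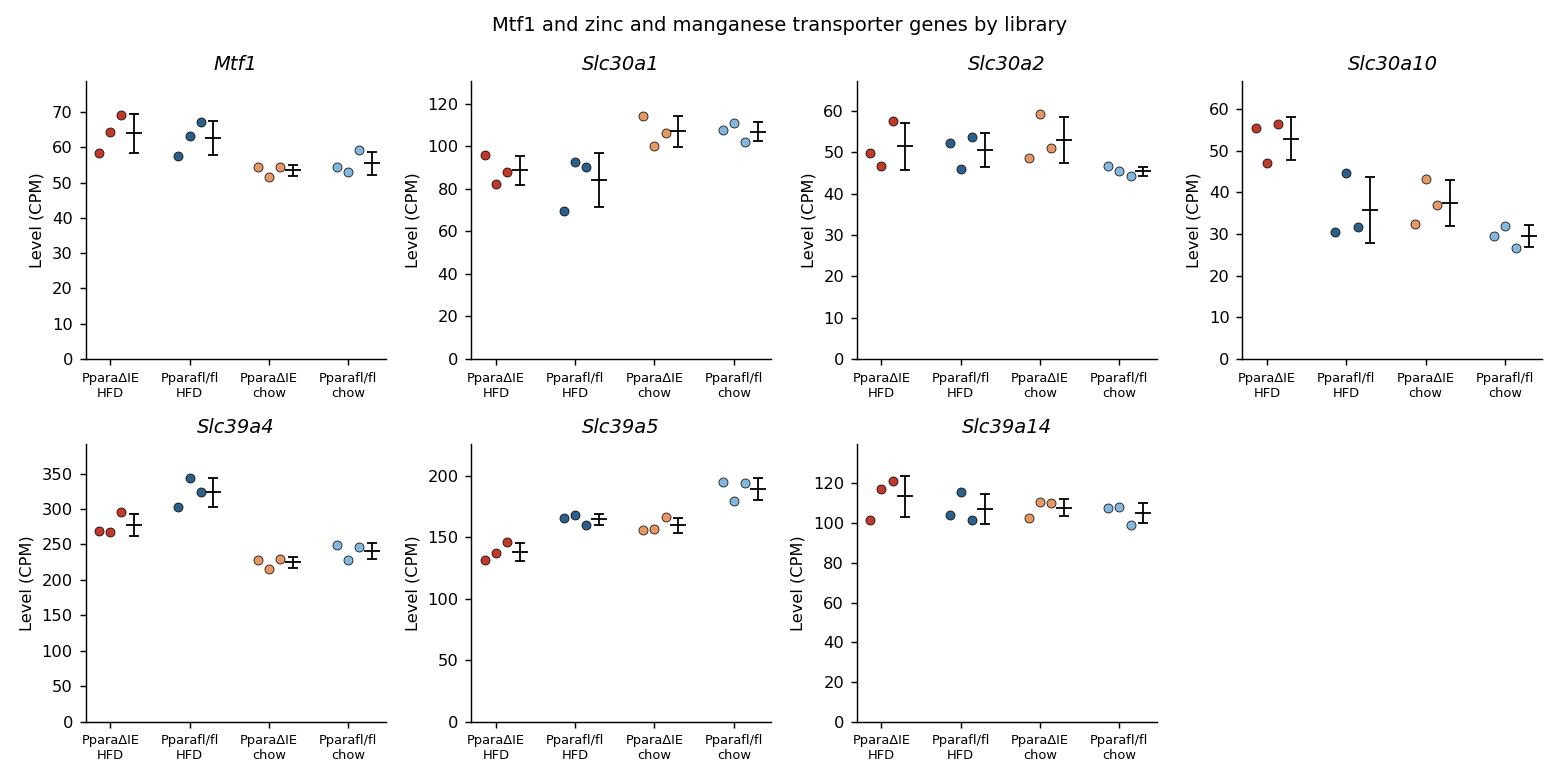
Level in CPM of Mtf1 and of the 6 transporter genes in each library, by group, with the mean and SD of 3 libraries beside the points; every axis starts at 0. Slc39a4 stands at 268 to 296 CPM in PparaΔIE HFD and 303 to 344 CPM in Pparafl/fl HFD, above the chow libraries of its genotype.

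**Figure D4:**
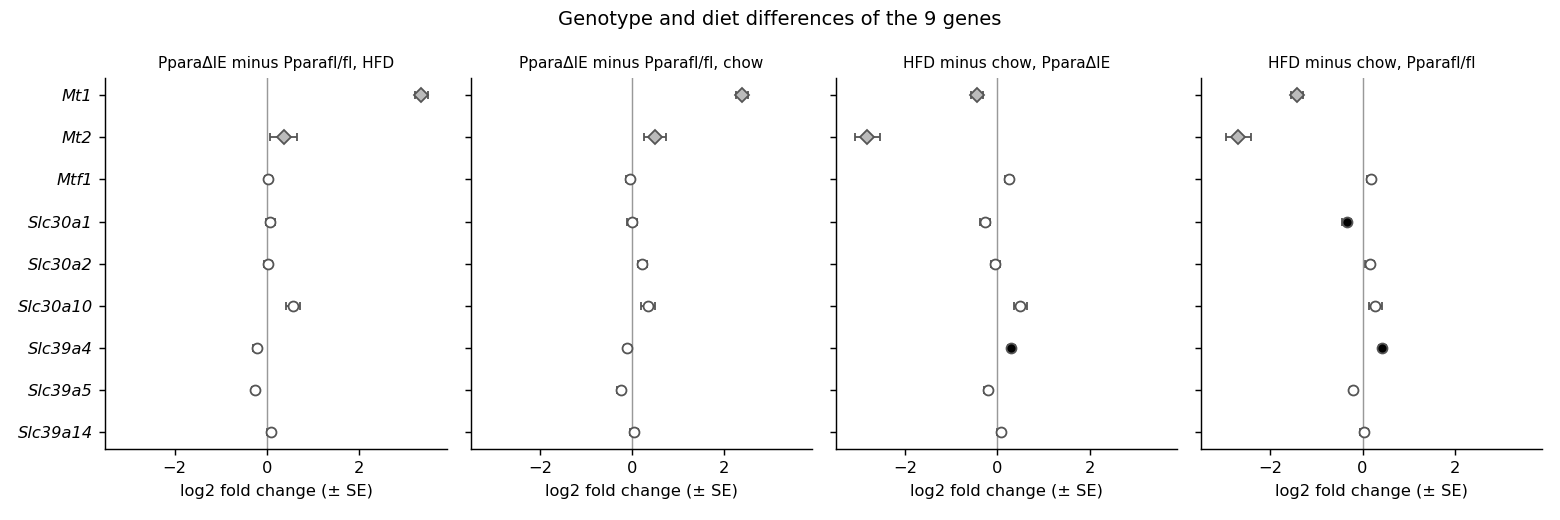
Log2 fold changes with SE of the 9 genes in 4 comparisons of 3 against 3 libraries. Grey diamonds mark Mt1 and Mt2, which are described without a test; black circles passed an adjusted p of 0.05 and white circles did not, so that Slc39a4 in both diet panels and Slc30a1 in Pparafl/fl alone are black.

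Among other members of the transporter families, 2 SLC39 genes were called between diets and no gene between genotypes. Of 7 further SLC30 genes 5 were tested, and edgeR called 0 in any comparison, with 0 at an unadjusted p under 0.05 and 0 by DESeq2. Slc30a8, known from pancreatic beta cells, had no count in any library, and Slc30a3 had 0 to 4 counts. Of 11 further SLC39 genes 10 were tested and 0 were called between genotypes, against 0.290% of all genes on HFD and 0.125% on chow. At an unadjusted p under 0.05 there were 0 on HFD and 1 on chow, and DESeq2 called 0. Between diets edgeR called 1 of the 10 in PparaΔIE and 2 in Pparafl/fl, against 8.20% and 13.4% of all genes. At an unadjusted p under 0.05 there were 4 in each genotype, among 4440 of all 17602 genes in PparaΔIE and 5170 in Pparafl/fl. In PparaΔIE 2 lay higher and 2 lower on HFD without overlap, against 12.7% and 13.1% of all genes. In Pparafl/fl 2 lay higher and 3 lower, against 19.3% and 18.6%. Slc39a11 fell on HFD in PparaΔIE (-0.47, adjusted p = 0.00867) and in Pparafl/fl (-0.55, adjusted p = 0.00228). Its level was 38.1, 43.5 and 40.4 CPM in PparaΔIE HFD, against 63.3, 49.7 and 55.6 CPM in PparaΔIE chow. In Pparafl/fl it was 43.6, 45.1 and 38.3 CPM on HFD, against 63.9, 62.0 and 60.1 CPM on chow, and the diets did not overlap in either genotype. In PparaΔIE its adjusted p was 0.0548 with only the groups compared and 0.067 without both chow libraries. Slc39a10, a plasma membrane importer that MTF1 is known to repress, rose on HFD in Pparafl/fl (0.59, adjusted p = 0.0248) and had 0.31 in PparaΔIE (adjusted p = 0.239). Its adjusted p in Pparafl/fl was 0.0658, 0.101 and 0.081 without chow library 1, 2 or 3, 0.0829 and 0.0607 without HFD library 1 or 2, and 0.0837 without both chow libraries. With the proximal score 0 of these 10 genes were called between diets. That fit called 0 of all 17602 genes in Pparafl/fl and 165 in PparaΔIE, so in Pparafl/fl it could call none of them.

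**Figure D5:**
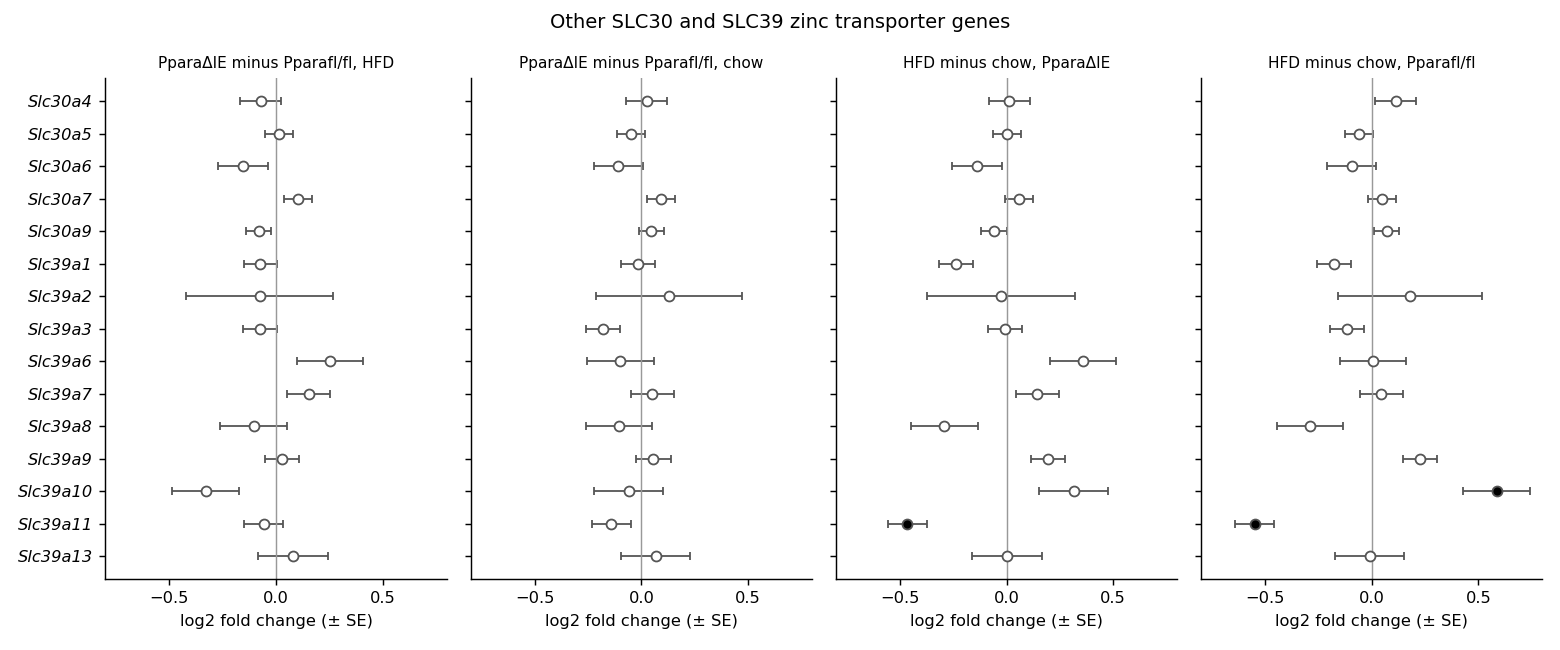
Log2 fold changes with SE of the 15 other tested SLC30 and SLC39 genes in 4 comparisons; black circles passed an adjusted p of 0.05 and white circles did not. Slc39a11 is black on the left in both diet panels, and Slc39a10 is black on the right in Pparafl/fl.

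The brain metallothionein gene Mt3 had 0 to 8 counts per library. Mt4, a metallothionein gene of stratified epithelium, had 0 counts in all 6 HFD libraries, where a count of 0 allows up to 3. On chow Mt4 had 9, 4 and 7 counts in PparaΔIE and 7, 3 and 7 counts in Pparafl/fl. Neither gene had enough counts to be tested.

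Lists of genes that respond to the signals known to act on metallothioneins were counted as well. Of 6 other known MTF1 targets, 0 were called between genotypes, against 0.290% of all genes on HFD and 0.125% on chow. At an unadjusted p under 0.05 there were 1 on HFD and 0 on chow, and DESeq2 called 0. On HFD in PparaΔIE 2 of the 6 fell (Selenow -0.45, Ndrg1 -0.70), where 4.76% of all genes did. In Pparafl/fl 2 rose (Slc39a10, Gclc 0.48) and 2 fell (Selenow -0.43, Csrp1 -0.51), against 6.80% and 6.57% of all genes. The median log2 fold change of the 6 was -0.25 and -0.40 in these diet comparisons, and without both chow libraries 1 and 0 were called. Of the 12 fits that left out 1 library, Selenow was called in 9 and Ndrg1 in 12 in PparaΔIE, and Gclc was called in 8, Selenow in 8 and Csrp1 in 7 in Pparafl/fl. Of 9 glucocorticoid-induced genes, 4 rose on HFD in PparaΔIE, where 3.44% of all genes did, and 4 in Pparafl/fl, where 6.80% did. The kinase gene Sgk1 rose by 1.01 in PparaΔIE (adjusted p = 0.00488) and by 1.92 in Pparafl/fl (adjusted p = 0.000195), and Fkbp5, which encodes a chaperone of the glucocorticoid receptor, by 1.13 (adjusted p = 0.00247) and 0.76 (adjusted p = 0.0099). Without both chow libraries, 2 and 1 of these 9 were called.

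Of 10 acute phase genes controlled by STAT3, 4 fell on HFD in PparaΔIE, where 4.76% of all genes did, and 5 in Pparafl/fl, where 6.57% did. The median log2 fold changes of the 10 were -0.84 and -1.59. The antimicrobial lectin gene Reg3b fell by 1.46 in PparaΔIE (adjusted p = 0.0122) and by 2.04 in Pparafl/fl (adjusted p = 0.00181), and the serum amyloid gene Saa2 by 1.28 (adjusted p = 0.035) and 1.94 (adjusted p = 0.00396). Saa2 had low counts, at a mean of 0.505 CPM in PparaΔIE HFD, 0.333 CPM in Pparafl/fl HFD, 1.23 CPM in PparaΔIE chow and 1.30 CPM in Pparafl/fl chow. Over the Pparafl/fl HFD libraries it rested on 39 counts. Saa1, at group means of 118 to 572 CPM, was called between diets in Pparafl/fl and not in PparaΔIE. Saa1 and Saa2 are near-identical copies whose reads may be shared. Without both chow libraries 0 and 3 of the 10 were called, and in PparaΔIE Saa2 was called in 7 of the 12 fits that left out 1 library. Of 9 NRF2 targets, 1 fell on HFD in PparaΔIE (Nqo1 -0.50), against 4.76% of all genes. In Pparafl/fl 2 rose (Gclc, Gclm 0.60) and 1 fell (Nqo1 -0.53), against 6.80% and 6.57% of all genes. Nqo1 was called in 4 of the 12 fits that left out 1 library in PparaΔIE and in 7 in Pparafl/fl, and Gclm in 7 in Pparafl/fl. Of the glucocorticoid, STAT3 and NRF2 lists 0 genes were called between genotypes, against 0.290% of all genes on HFD and 0.125% on chow. At an unadjusted p under 0.05 there were 1, 0 and 3 on HFD and 2, 0 and 0 on chow, and DESeq2 called 0. The STAT3 genes had a median log2 fold change between genotypes of 0.55 on HFD and -0.06 on chow. On HFD 4 of the 10 lay higher in PparaΔIE without overlap and 0 lower, against 9.27% and 8.70% of all genes. On chow 0 of the 10 lay apart in either direction. The glucocorticoid and NRF2 lists had 0 such genes on HFD.

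Among 9 copper-handling genes, Sod1, which encodes the copper and zinc superoxide dismutase, was lower in PparaΔIE on HFD (-0.49, adjusted p = 0.0436). Its level was 130, 118 and 147 CPM in PparaΔIE HFD and 208, 177 and 169 CPM in Pparafl/fl HFD. The adjusted p was 0.116 and 0.123 without Pparafl/fl HFD library 1 or 2, 0.141 and 0.217 without PparaΔIE HFD library 1 or 2, 0.084, 0.0735 and 0.078 without Pparafl/fl chow library 1, 2 or 3, 0.0757 without PparaΔIE chow library 3, 0.162 without both chow libraries and 0.271 with only the groups compared. Sod1 rose on HFD in Pparafl/fl by 0.63 (adjusted p = 0.00112), and had 0.23 in PparaΔIE (adjusted p = 0.132). The copper exporter gene Atp7b also rose on HFD in Pparafl/fl, by 0.74 (adjusted p = 0.0363), with an adjusted p of 0.101, 0.11 and 0.113 without Pparafl/fl chow library 1, 2 or 3, 0.0886, 0.074 and 0.082 without Pparafl/fl HFD library 1, 2 or 3, 0.0552 without PparaΔIE chow library 3, 0.141 without both chow libraries and 0.0757 with no filter. Between genotypes on chow Atp7b had 7.65, 16.0 and 12.4 CPM in PparaΔIE, against 6.55, 6.08 and 6.30 CPM in Pparafl/fl. That log2 fold change was 0.93, and the groups did not overlap. Its adjusted p was 0.143 by edgeR, 0.00246 by edgeR without PparaΔIE chow library 1, and 0.00278 by DESeq2. Of the 9 copper-handling genes edgeR called 1 between genotypes on HFD, against 0.290% of all genes, and 2 as higher on HFD in Pparafl/fl, against 6.80%. DESeq2 called 1 of the 9 between genotypes on HFD and 1 on chow, and 1 between diets in PparaΔIE and 2 in Pparafl/fl. Of 6 manganese-handling genes, 1 fell on HFD in PparaΔIE, against 4.76% of all genes. It was the Golgi calcium and manganese pump gene Atp2c2 (-0.49, adjusted p = 0.0125). In the other pairwise comparisons edgeR called 0 of the 6. At an unadjusted p under 0.05 there was 1 between genotypes on each diet and 2 between diets in Pparafl/fl, where DESeq2 called 1.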

How the data were processed

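Total RNA from mouse intestine was isolated with a column kit and made into stranded total RNA libraries, per the labels' protocols. Values in the deposited table are expected counts, which estimate the reads of each gene and can hold fractions; Trimmomatic, STAR, Picard, RSEM and mm10 are named in the submitters' processing notes. No release of the annotation and no strand setting is given in the sources used here, so reads of overlapping or antisense genes may be mixed. Of 47643 gene IDs, 47224 matched a symbol in GENCODE vM21, and 60 of these had a symbol already used by another ID.

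Expected counts were rounded and tested with edgeR 4.0.16 in R 4.3.3 (robust quasi-likelihood F test, TMM factors, filterByExpr). The fit took the means of all 4 groups from the 12 libraries together. Benjamini-Hochberg adjustment ran over 17602 genes, with a threshold of 0.05. CPM used TMM-scaled library sizes. Standard errors (SE) of log2 fold changes came from the F statistic. Totals of 33620991 to 53959367 counts mean that 1 CPM stood for 33.6 to 54.0 counts. Replicates differed by more than sampling noise in every pair.

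The members, gene lists and tests were chosen with earlier results of these data known. The text names all 9 members, Ppara, the 5 likest genes of Mt1, Mt2 and Slc39a4 (mean log2 CPM of at least 1), of which 1 is not reported here, and up to 4 called genes of each list. Named outside this rule, after their values were seen, were Lct, Slc10a2, colon markers, neighbours of Mt1 and untested family genes. Alternatives were DESeq2 size factors, no filter, at least 50 counts in 3 libraries, the Wald test of DESeq2 1.42.0, the replicate number as a block, only the groups compared, each library left out, 2 chow libraries left out, and a proximal marker score as a covariate. The fits were tested on simulated data. Sequences came from GENCODE and RefSeq tables. Figures were drawn with matplotlib 3.10.9 in Python 3.11.15.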

Additional observations from a re-analysis of the deposited data

How the results depend on the processing

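The genotype differences of Mt1 and the diet differences of Mt2 kept their direction under all 20 alternatives. The log2 genotype difference of Mt1 stayed within 3.18 to 3.45 on HFD and 2.30 to 2.45 on chow, and the log2 diet difference of Mt2 within -3.07 to -2.63 in PparaΔIE and -3.33 to -2.48 in Pparafl/fl. Counts of called genes moved far more than these values.

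The edgeR fit called 51 genes between genotypes on HFD, 22 between genotypes on chow, 1444 between diets in PparaΔIE, 2353 between diets in Pparafl/fl and 1 for the interaction. Leaving out 1 library gave 5 to 173, 1 to 517, 451 to 2551, 895 to 3089 and 0 to 19 calls in that order. DESeq2 called 288 and 188 genes between genotypes on HFD and chow and 57 for the interaction. Without a filter the counts were 94, 49 and 4. With only the groups compared they were 6 and 54 between genotypes and 335 between diets in PparaΔIE. Without Pparafl/fl chow 1 and PparaΔIE chow 3 they were 3 and 1 between genotypes, 185 and 458 between diets and 0 for the interaction. With the proximal score, chosen after seeing the data, they were 6 and 6 between genotypes, 165 and 0 between diets and 0 for the interaction. With that score the log2 diet difference in Pparafl/fl was 0.046 for Slc30a1 (SE 0.20) and -0.37 for Atp7b (SE 0.31). Both signs differ from the main fit, but neither value was called, so no reversal can be read from them. A filter of 50 counts left 0 calls for the interaction. The cause of these shifts was not tested.

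The shared replicate numbers did not pair the libraries, since correlations of same-numbered deviations ran from -0.111 to 0.143. With the replicate block 41 genes were called between genotypes on HFD, 14 on chow, 1463 and 2439 between diets in PparaΔIE and Pparafl/fl, and 0 for the interaction. Between diets in PparaΔIE the block gave Mtf1 an adjusted p of 0.0416 and Slc30a10 one of 0.039, both past the threshold. The likeness of the Pparafl/fl chow libraries limits how firmly small differences can be read. The place of PparaΔIE chow library 3 between the others of its group limits this too, and Mt2 on HFD rests on few counts.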
